A study of Mus musculus with 18 samples.

Results

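The neural lineage genes described here are 9 protein-coding genes, Pax6, Pax2, Sox1, Sox11, Nes, Neurog2, Pou3f2, Tubb3 and Hes5. They were taken by symbol from the 21859 genes of the deposited gene table. For 8 of them the table of promoter upstream transcripts (PROMPTs) also held a row of the same symbol, out of 32253 PROMPTs. Hes5 had no PROMPT row. PROMPTs are short-lived RNAs transcribed away from a gene, here from the strand opposite to the gene in the 1 kb before its start.

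Newly made RNA was measured in E14 mouse embryonic stem (ES) cells by transient transcriptome sequencing (TT-seq). RNA made during a 5 min pulse of a thiolated uridine is isolated and sequenced in this assay. There were 18 libraries in 6 groups of 3. All cells carried osTIR1, the plant F-box protein that directs auxin-dependent degradation, at the Rosa26 locus. The untagged groups (Untagged_EtOH and Untagged_3-IAA) had no degron, and the groups SPT16_AID_V5_Clone1 and SPT16_AID_V5_Clone2 were 2 clones whose SPT16, a subunit of the histone chaperone FACT, carried an auxin-inducible degron and a V5 tag at its C terminus. After 48 h undisturbed, each line received 0.1% ethanol or 3-indoleacetic acid (3-IAA) for 24 h; the labels give the dose as 500 nM, whereas the methods give the same figure in µM. Nothing in the labels says whether the 3 replicates of a group were separate cultures. The paper's statistics section describes replicates counted as n as technical, and the 2 clones as the biological replicates. The cells grew without feeders in serum with LIF and with inhibitors of GSK3 and MEK, a medium that holds ES cells in an undifferentiated state.

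The level used throughout is the authors' baseMean, the mean over the libraries of read counts divided by each library's size factor. It pools the 6 libraries of SPT16-AID cells given 3-IAA with the 12 other libraries. It therefore has no standard deviation and no value per group, and a level may be made up largely of either set. The columns that compare depleted with control libraries hold the authors' own results and were not used. No effect of SPT16 loss on these levels is therefore given. Intervals below are exact Poisson 95% intervals on the baseMean multiplied by 18 libraries. They approximate counting error only and leave out the spread between libraries.

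Neural identity is laid down by transcription factors that act in a rough order. SOX and PAX factors mark neuroectoderm and its progenitors, proneural basic helix-loop-helix (bHLH) factors such as Neurog2 start neuronal differentiation, and Notch signalling holds progenitors back through HES repressors. Nestin, the product of Nes, is an intermediate filament of neural stem cells, and Tubb3 encodes the beta-tubulin of neurons. Inhibition of MEK is used to hold ES cells back from this path.

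The strands upstream of the genes give a view of where the PROMPTs arise. The 250 bases before the annotated start are shown for the members with the highest PROMPT level, Nes, and with the lowest level above 0, Sox1. Both are read 5′ to 3′ on the strand of the gene from GRCm38 (mm10), and capitals mark GC boxes, GGGCGG or its reverse complement CCGCCC. The Nes bases are chr3:87970828-87971077 and the Sox1 bases are chr8:12395045-12395294, both on the plus strand, outside the annotated gene.
Nes: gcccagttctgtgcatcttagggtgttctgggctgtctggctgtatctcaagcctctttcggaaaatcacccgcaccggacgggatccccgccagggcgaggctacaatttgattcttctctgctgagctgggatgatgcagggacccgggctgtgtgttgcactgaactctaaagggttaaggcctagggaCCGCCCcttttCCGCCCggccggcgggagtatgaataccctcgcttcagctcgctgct
Sox1: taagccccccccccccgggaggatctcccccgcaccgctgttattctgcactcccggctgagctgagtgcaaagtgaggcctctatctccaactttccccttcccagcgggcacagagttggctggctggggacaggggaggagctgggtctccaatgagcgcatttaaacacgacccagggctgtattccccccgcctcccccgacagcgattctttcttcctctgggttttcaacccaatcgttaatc
The Nes window held 2 GC boxes and 14 CpG dinucleotides, and the Sox1 window held no GC box and 11 CpGs. Over the same window of 21797 listed genes, 39.1% had a GC box and the median was 8 CpGs. GC boxes were found in 4 of the 9 members (Nes, Neurog2, Pou3f2 and Tubb3). CpG counts of the members ran from 8 in Neurog2 through a median of 15 to 32 in Hes5, and 8 of the 9 lay above the median of all genes.

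Other short motifs were searched on both strands of the same windows, counting matches that overlap each other or another motif. No member had a TATAAA, which 11.6% of all windows held. The E-box CANNTG, the letters bound by bHLH factors, was present in 4 of 9 members against 64.1% of all windows. ATTGT, a core of SOX binding sites, was present in 5 of 9 members against 26.2%. TGGGAA, the core bound by the Notch effector RBPJ, was present in 2 members, Hes5 with 2 matches and Sox1 with 1, against 22.1% of all windows. A match of letters is not a bound site.

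Newly made RNA was recorded for 8 of the 9 genes, and it covered a wide range. The baseMean was 1097 for Nes, 245 for Sox1 and 177 for Sox11. It was 35.8 for Pax6, 34.2 for Pax2 and 17.4 for Pou3f2. The lowest levels were 5.42 for Neurog2 and 3.18 for Hes5, and Tubb3 was listed at 0. Of the 8, Nes lay above 421, the median of the 20157 genes with reads, and the other 7 lay below it. Ranked by baseMean, Nes stood at the 60.8th percentile of genes with reads, Sox1 at the 44.7th and Sox11 at the 42.0th. Hes5 stood at the 17.6th percentile, and the median over the 9 members was 30.6 with Tubb3 taken as 0, and 30.8 over the 8 with reads.

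A longer gene collects more reads, so levels of different genes are compared per kb. Both the exonic length and the whole gene span are used, since the sources used here do not say over which of them reads were counted. Counting over exons alone would not by itself put a gene at 0 where it shares no exon base with the covering genes. Of 182 wholly covered genes of this kind, 180 were at 0 (described with Tubb3). Values per kb of exon may therefore divide intronic reads by exonic length. Dividing by exons alone raises genes with long introns relative to genes of 1 exon. Per kb of the union of annotated exons, the order was Nes (171 normalized reads per kb), Sox1 (50.7), Sox11 (21.3), Pax2 (6.31), Pou3f2 (3.11), Pax6 (3.06), Neurog2 (2.44) and Hes5 (2.34). Nes, Sox1, Sox11 and Pax2 were each separated from the next gene by 2.03 to 3.38-fold, with counting intervals that did not meet. The intervals of the lowest 4 neighbours overlapped, with Pou3f2 at 2.78 to 3.48, Pax6 at 2.83 to 3.31, Neurog2 at 1.98 to 2.98 and Hes5 at 1.76 to 3.01 per kb of exon. Their order is not settled by the counts. The highest and lowest of the 8 genes differed by 73.2-fold per kb of exon, and by 280-fold per kb of span.

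Nascent RNA includes introns, and dividing by the whole gene span changed the places of the 2 PAX genes. Sox1, Sox11 and Pou3f2 have 1 exon each, and their values per kb are the same on either length. Pax2 spans 81827 bases on chromosome 19 (44756045 to 44837871, plus strand) with 5409 exonic bases, and its level was 0.417 per kb of span. Pax6 spans 28465 bases on chromosome 2 (105668900 to 105697364, plus strand) with 11694 exonic bases, and its level was 1.26 per kb of span. On this length Pax2 and Pax6 were the lowest of the genes with reads, below Neurog2 at 2.17 and Hes5 at 2.20.

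**Figure D1:**
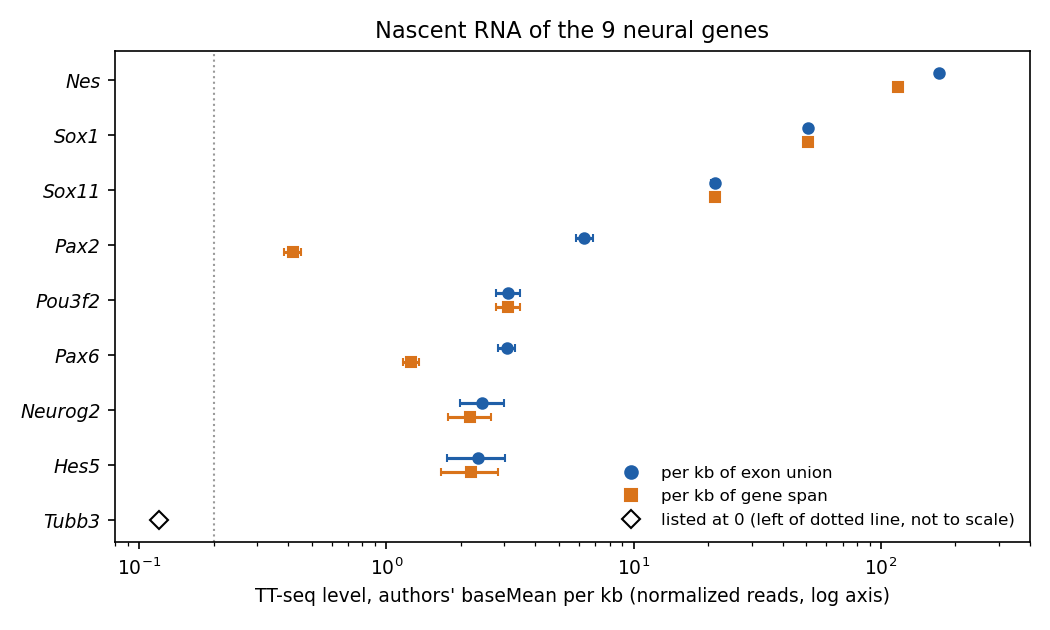
Authors' baseMean per kb of exon union (blue circles) and per kb of gene span (orange squares) for the 9 neural genes on a log axis, with bars for the approximate 95% counting interval. Nes, Sox1 and Sox11 are the highest on both lengths, while Pax2 moves from 6.31 per kb of exon to 0.417 per kb of span; Tubb3 is listed at 0.

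The SOX members are Sox1, an early marker of neuroectoderm, and Sox11, which is active in committed neural precursors and immature neurons. Sox1 lies on chromosome 8 (12395295 to 12400126, plus strand). Within the SoxB family of 5 genes it took place 3, at 50.7 normalized reads per kb of exon. Sox2, the family member that also maintains pluripotency, was highest at 2910 per kb, 57.4-fold above Sox1. Sox14 was the lowest at 0.289 per kb. The annotated non-coding gene Sox1ot (12385771 to 12436768) lies on the same strand across all of Sox1, and unspliced RNA of the pair cannot be told apart by strand. Sox11 (chromosome 12, 27334264 to 27342574, minus strand) was the lowest of the 3 SoxC genes at 21.3 per kb. Sox12 was the highest at 164 per kb, 7.71-fold above Sox11, and Sox4 lay between them at 36.5.

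Both PAX members encode paired-domain transcription factors, Pax6 of the eye and forebrain and Pax2 of the midbrain-hindbrain boundary and kidney. Per kb of exon, Pax2 was at place 5 and Pax6 at place 7 of the 9 paired-box genes. Pax7 was the highest at 30.5 per kb, and Pax4 was the lowest at 0.362. Per kb of span, Pax7 was again the highest at 1.85, Pax6 was next at 1.26, and Pax2 was at place 7. The baseMean of Pax6 was 1.05 times that of Pax2, with overlapping counting intervals (33.1 to 38.7 and 31.5 to 37.0).

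Pou3f2, also known as Brn2, is a POU homeodomain factor of neural progenitors and neurons, on chromosome 4 (22482780 to 22488366, minus strand). It took place 3 of the 4 POU class III genes at 3.11 per kb. Pou3f1 was the highest at 10.2 per kb and Pou3f4 the lowest at 0.399. Neurog2 lies on chromosome 3 (127633135 to 127635631, plus strand). At 2.44 per kb of exon it took place 3 of the 11 proneural bHLH genes examined. Their median percentile among genes with reads was 15.8 per kb of exon, with genes at 0 included. Atoh1 was the highest at 4.21 per kb, 1.73-fold above Neurog2. Neurod2 was the lowest with reads at 0.102 per kb, and Neurod1 and Neurod6 were listed at 0. Neurod1 lies wholly inside the span of other genes on its strand, so its 0 gives no level (described with Tubb3).

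Hes5, a bHLH repressor induced by Notch in neural progenitors, lies on chromosome 4 (154960923 to 154962371, plus strand). Its 2.34 normalized reads per kb of exon put it at place 8 of the 9 Hes and Hey genes. Hes1, another Notch target, was the highest at 627 per kb of exon. It stood 268-fold above Hes5 per kb of exon and 170-fold per kb of span. Hes3 was the lowest at 1.81. The rest of the Notch pathway mostly had higher levels, with a median baseMean of 738 over 22 genes, against 421 over all genes with reads. Its medians were 188 per kb of exon and 73.1 per kb of span, with median percentiles of 55.0 and 65.3 among genes with reads. Its highest gene was Rbpj, the DNA-binding partner of activated Notch, at 2844 per kb of exon (190 per kb of span), and its lowest was the ligand gene Dll4 at 0.867 (0.328). Hes5, at percentiles 20.6 per kb of exon and 32.8 per kb of span, stood below the median percentiles of this list.

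Nes lies on chromosome 3 (87971078 to 87980451, plus strand). At 171 per kb of exon it took place 2 of the 10 intermediate filament genes examined, on either length. Vim, encoding vimentin, with which nestin co-assembles, was the highest at 636 per kb of exon, 3.72-fold above Nes. Gfap, the astrocyte filament, was the lowest at 7.83 per kb of exon, 21.9-fold below Nes, and 48.1-fold below it per kb of span.

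**Figure D2:**
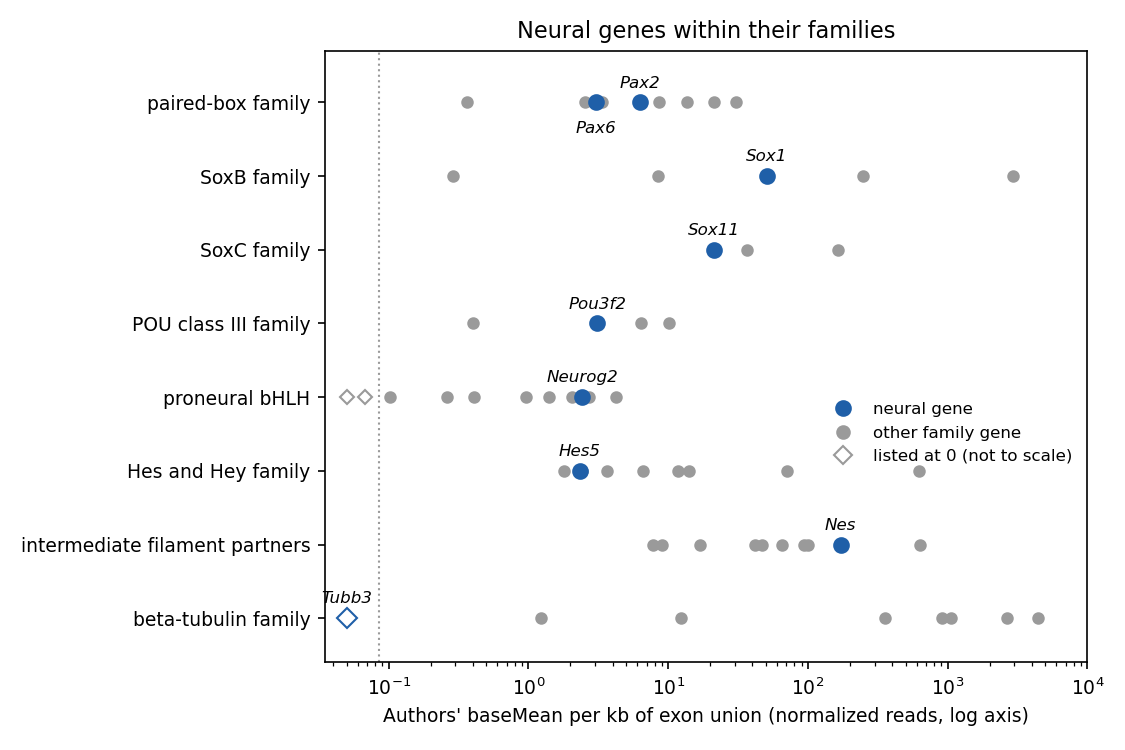
Authors' baseMean per kb of exon union on a log axis for every gene of the 8 families, with the neural genes in blue and the other family genes in grey; open diamonds are genes listed at 0. Sox1, Sox11, Pou3f2 and Neurog2 are each at place 3 in their family and Nes is at place 2, while Hes5 lies 268-fold below Hes1 (170-fold per kb of span).

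Tubb3 is listed at 0, and its place in the annotation bears on that value. It lies on chromosome 8 (123411424 to 123422015, plus strand), wholly inside the protein-coding model Gm20388, named Galnt2l in the gene table. That model runs from 119910841 to 124345722 on the same strand and spans 4434882 bases, and its baseMean was 14669. The exons of the pair share 0 bases. All 37 listed genes inside the model on its strand were at 0, among them Rpl13, a ribosomal protein gene, and Cox4i1, a subunit of cytochrome c oxidase, both used by nearly all cells (these 2 were chosen after their values were seen). Thus the 0 of Tubb3 gives no level for the gene, and its last place among 8 beta-tubulin genes was not read as one. The highest of them, Tubb5, was at 4403 per kb of exon, and Tubb1 was the lowest with reads at 1.23.

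The same held over the genome. Of the 400 listed genes whose whole span lay in other listed genes of their strand, 398 were at 0 (99.5%; exact binomial 95% interval 98.2% to 99.9%). Of these 400, 182 shared no exon base with the covering genes, and 180 of the 182 were at 0. In contrast, 1178 of 20447 genes with no such overlap were at 0 (5.76%; 5.45% to 6.09%). Neurod1 was also wholly covered, whereas Neurod6, at 0 too, overlapped no other gene. None of the other 8 neural genes was overlapped by a listed gene of its strand.

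**Figure D3:**
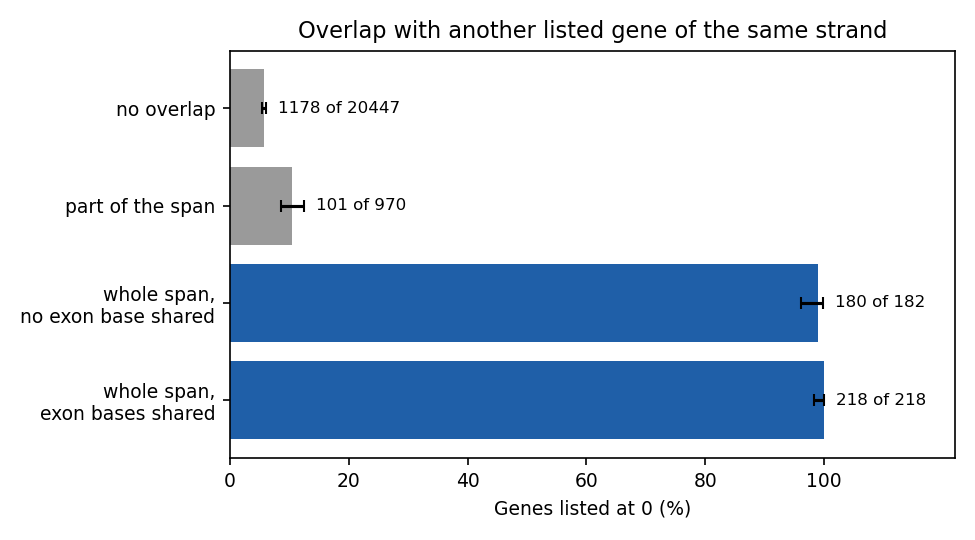
Percentage of genes listed at 0, by how much of the gene span lies in another listed gene of the same strand, with exact binomial 95% intervals as bars. The bar for wholly covered genes that share no exon base, the class of Tubb3, reaches 98.9%, against 5.76% for genes without overlap.

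Upstream antisense RNA of these genes was measured from few reads, as for most PROMPTs. The PROMPT baseMean was 3.61 for Nes, 2.09 for Tubb3 and 1.42 for Sox11. It was 0.495 for Pou3f2, 0.202 for Neurog2, 0.103 for Pax6 and 0.0770 for Sox1, and Pax2 was listed at 0. Of the 8, 3 were at 1 or more (37.5%), against 33.7% of all PROMPTs. Summed over 18 libraries, the Nes value amounts to 65.0 normalized reads, the Pax6 value to 1.85 and the Sox1 value to 1.39, so Pax6 and Sox1 rest on a few reads. Among the 23257 PROMPTs with reads, Nes stood at the 71.6th percentile, Tubb3 at the 63.9th, Sox11 at the 58.4th and Sox1 at the 11.8th, and the median over the 8 members was 33.9. The 37.6 normalized reads of the Tubb3 window come from the strand opposite to that of Gm20388.

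The PROMPT and gene levels may have been scaled separately, which was not tested (the smallest value above 0 was 0.0266 in the former and 0.0216 in the latter). A ratio between them may therefore carry an unknown factor common to all genes. The PROMPT amounted to 0.329% of the gene baseMean for Nes, 0.800% for Sox11, 2.85% for Pou3f2 and 3.73% for Neurog2. It amounted to 0.287% for Pax6 and 0.0315% for Sox1. Over 13699 genes with reads in both tables the median was 0.340%. Over the 6 members with reads in both it was 0.565%. With Pax2 included at 0, the median over 7 members was a ratio of 0.00329.

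The median PROMPT baseMean went from 0 in the lowest of 20 bins of genes by level to 5.61 in the highest, so each member was set beside the 500 genes closest to it in gene baseMean. Sox1 stood at percentile 17.2 of its 500, whose median PROMPT baseMean was 0.863, above the upper end of its own counting interval (0.00141 to 0.310). Pax2, listed at 0, was at percentile 22.0, which is the share of its 500 also at 0 and the lowest rank possible. Its interval ended at 0.205, below the median of its 500, 0.228. Pax6 was at 38.6 with an interval (0.0135 to 0.401) that held the median of its 500, 0.211. The other 4 lay between percentiles 58.8 and 64.0. These were Nes (3.61 against a median of 2.35), Sox11 (1.42 against 0.786), Pou3f2 (0.495 against 0.174) and Neurog2 (0.202 against 0.103). The intervals of Nes, Sox11 and Pou3f2 began above these medians, at 2.79, 0.899 and 0.229. That of Neurog2 (0.0605 to 0.569) held its median. Within the SOX families the PROMPT baseMean was 88.1 for Sox2 and 35.2 for Sox12. Their gene baseMeans were also higher than those of Sox1 and Sox11, at 5985 and 731, so these values are not matched by level. Sox4, with a gene baseMean of 175 against 177 for Sox11, had a PROMPT baseMean of 3.58.

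Antisense transcripts in the annotation touch 2 of the 9 upstream windows. Pax6os1 (chromosome 2, 105536080 to 105670330, minus strand) starts inside Pax6 and runs through the window counted for the Pax6 PROMPT, which held 1.85 normalized reads. The PROMPT row named for Pax6os1 itself, at 0.937, lies by its annotated start on the strand of Pax6 within that gene. Gm20421 (chromosome 4, 154960770 to 154961678, minus strand) covers the start of Hes5.

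**Figure D4:**
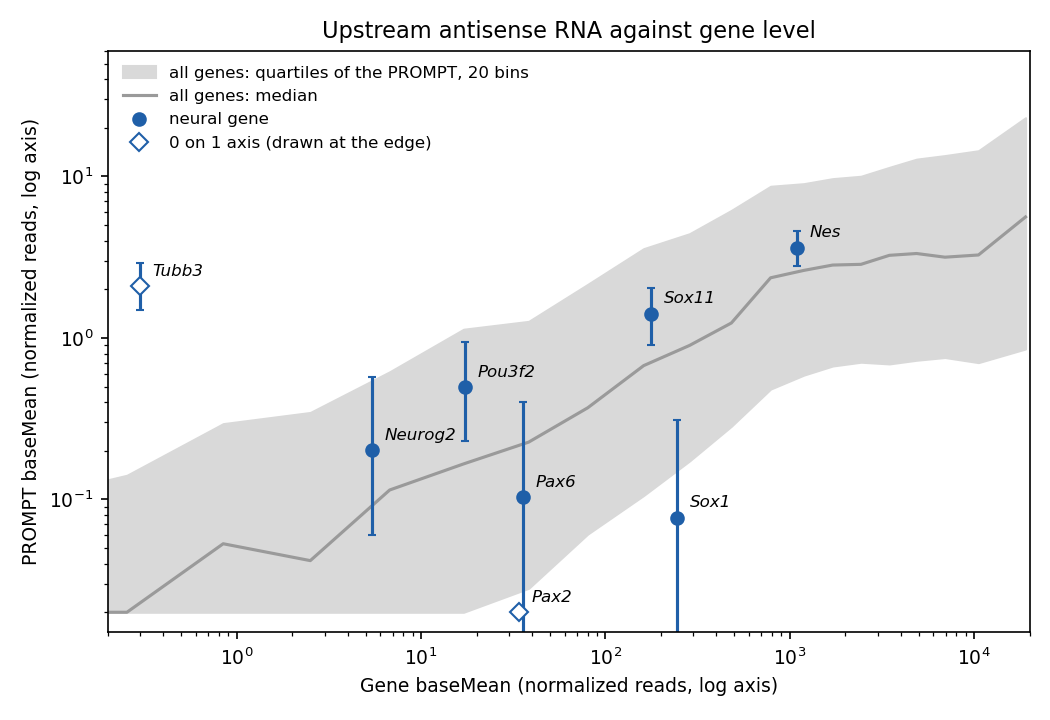
PROMPT baseMean against gene baseMean for the neural genes with a PROMPT row (points, with approximate 95% counting intervals) on 2 log axes, over the median and quartiles of the PROMPT in 20 bins of all genes by gene baseMean, with values of 0 drawn at the edge. Sox1, at 0.0770, lies below the lower quartile, while Nes, Sox11, Pou3f2 and Neurog2 lie between the median and the upper quartile.

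The label of undifferentiated ES cells was checked against marker genes on the same scale. All 12 pluripotency genes had a baseMean of 100 or more, with a median percentile of 96.2 per kb of exon. Zfp42 was the highest at 12345 per kb of exon and Utf1 the lowest at 202, against 171 for Nes. Per kb of span the highest was Sox2 at 2910, and the lowest was Lin28a at 101, below Nes at 117. The 8 neural genes with a level had a median percentile of 24.6 per kb of exon (22.4 with Tubb3 taken as 0) and 34.0 per kb of span, and 20 other neural progenitor factors had 30.2 per kb of exon and 34.1 per kb of span, with Emx2 the lowest at 0.0494 per kb of exon. The 11 mesoderm and endoderm genes had 32.8 and 35.5, from Hnf4a at 210 per kb of exon to Sox17 at 2.13. The 11 neuron markers had median percentiles of 39.5 per kb of exon and 34.6 per kb of span. Only the value per kb of exon was well above that of the 8 neural genes (24.6). Per kb of span the 2 lists were close (34.6 and 34.0). They ranged from 1811 per kb of exon (194 per kb of span) for Stmn2, a microtubule regulator, to 0.184 (0.0301) for Dcx, encoding doublecortin of migrating neurons. In these pooled bulk values, few cells with much of an RNA and many cells with little cannot be told apart.

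**Figure D5:**
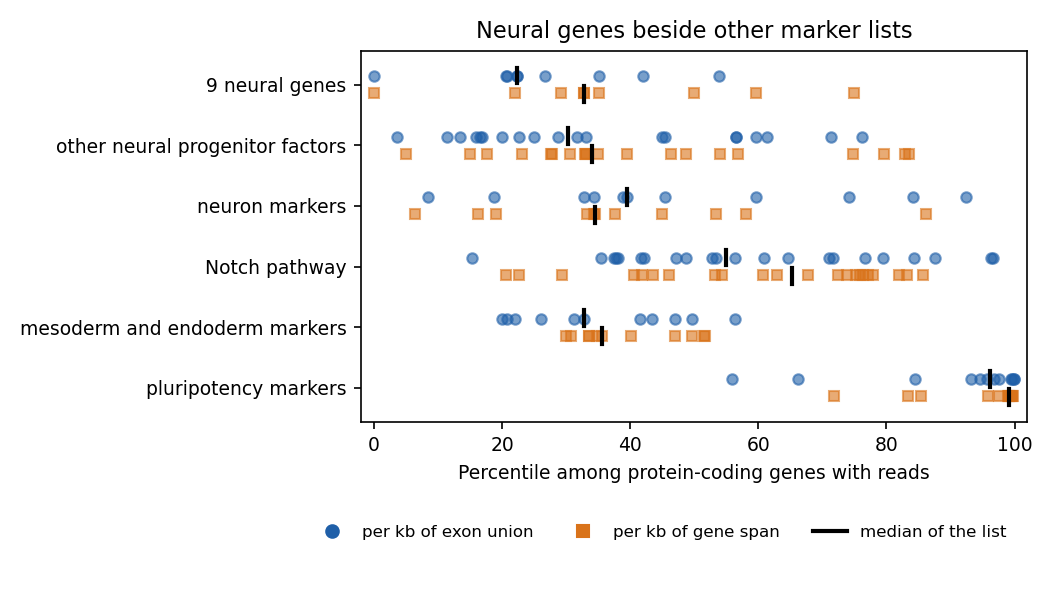
Percentile of each gene among protein-coding genes with reads, per kb of exon union (blue circles) and per kb of gene span (orange squares), for 6 lists, with a black line at the list median. The pluripotency genes lie near the upper end with medians of 96.2 and 99.1, and the 9 neural genes have medians of 22.4 and 32.8 with Tubb3 drawn at 0 (24.6 and 34.0 without it).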

How the data were processed

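TT-seq libraries of 18 samples were made by the authors, who trimmed reads, aligned them to mm10 with STAR keeping unique alignments, and counted them by strand on GENCODE M25 protein-coding genes and on PROMPT windows. The methods name featureCounts and the submitters' processing notes name HTSeq. The deposited tables give 1 baseMean signal per feature, which the authors computed with DESeq2 as the mean of counts divided by library size factors, with no filter on expression. The other deposited value columns hold the authors' comparison of depleted with control libraries (log2 fold change, its error and p-values) and were not used. The methods give an approximate depth in mapped reads for the libraries as a whole, and the depth of each library is unknown here. The gene baseMeans sum to 55898466 and the PROMPT baseMeans to 241485. Of the 21859 gene IDs, 21817 matched GENCODE M21 on GRCm38, which gave the coordinates, exon unions and overlaps and may differ from M25.

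Per-kb values, percentiles (share of features with reads at or below a value), exact Poisson and binomial 95% intervals and motif counts were computed in Python 3.11.15 with pandas 2.3.3 and scipy 1.17.1; percentile and overlap code was tested on simulated data. Values per kb use genes matched to M21. The members, the 14 gene lists and the comparisons were chosen with earlier results of these data known. Every member is named; of each list the highest and lowest genes per kb and those at 0 are named, and Sox4, Rpl13 and Cox4i1 were added after their values were seen. The highest gene of the neural progenitor list is not reported here. No groups were compared and no test was run. Alternatives changed the background genes and the length used. Regions numbered without coordinates (eRNA and other non-coding tables) were not used.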

Additional observations from a re-analysis of the deposited data

How the results depend on the processing

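The median percentile of the 9 gene levels, 30.6, became 20.9 where 1 was the lowest baseMean admitted, 36.0 among all listed genes, 22.4 per kb of exon union and 32.8 per kb of gene span. It was 30.8 without Tubb3 and 30.5 among genes free of same-strand overlap, 2 alternatives chosen after seeing the data. The median percentile of the 8 PROMPTs, 33.9, became 0 among PROMPTs of at least 1, since most members fall below that minimum and were set to 0, and 27.0 among PROMPTs whose symbol is in the gene table. The median ratio of PROMPT to gene, 0.00329, became 0.0335 per kb of exon and window, 0.0665 per kb of span and window, and 0.00565 over the 2 members with a PROMPT of at least 1 and a gene level. Per kb of span, Pax6 moved from place 7 to 2 in its family, Pax2 from 5 to 7 and Hes5 from 8 to 7. With no length correction, Pax6 was at place 5, Pax2 at 6, Sox11 at 2 in place of 3, and Hes5 at 9. Sox1, Nes, Neurog2, Pou3f2 and Tubb3 kept their places under both. Pooled means allow neither leaving out a replicate nor a spread between libraries, and differences of the size of the counting intervals were not detectable. No paired analysis was possible because the values come from no test and no column is given per library.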

Other observations

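Of the 400 wholly covered genes, S100a2 (baseMean 7.24) and Ifi211 (0.240) were above 0 in the GENCODE M21 overlap. Neurod1, which was wholly covered and listed at 0, had a PROMPT baseMean of 4.39, above the 3.61 of Nes. Elavl3 was covered over 42.3% of its span, and its baseMean was 105. Among neuron markers, Ncam1 and Mapt had 1055 and 610 normalized reads per kb of exon but 30.8 and 45.6 per kb of span, at percentiles 53.5 and 58.1 on the latter. These genes were chosen after their values were seen.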
